A study of Mus musculus with 103 samples.

Results

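The otic vesicle of the E9.5 mouse embryo, the closed epithelial cup that becomes the inner ear, was compared with epidermal ectoderm of the same stage. The members were the 13 libraries whose titles name these tissues, 6 of otic vesicle and 7 of epidermal ectoderm, of 103 in the series. All came from outbred CD1 embryos with no allele or treatment named in the labels, and the day of the vaginal plug was counted as E0.5. Tissue was cut from frozen sections by laser capture microdissection, and its RNA was amplified and hybridised to Affymetrix arrays. A captured patch can hold neighbouring cells, the labels do not say from which part of the head the ectoderm was taken, and several patches may come from 1 embryo. The p-values therefore measure the spread between libraries and may be too small. That spread was pooled over 22 groups of the series, not estimated from these 13 libraries alone. In captured tissue, fewer cells of a type and less RNA per cell cannot be told apart.

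The inner ear arises from the otic placode, a thickening of the surface ectoderm beside the hindbrain that sinks in and pinches off as the vesicle. Fibroblast growth factors from the hindbrain and mesoderm induce it, and Pax, Sox, Gata and homeobox transcription factors then give the epithelium its regional identity. Neuroblasts leave the vesicle to form the cochleovestibular ganglion, and the remaining wall makes hair cells, supporting cells and the proteins of the otoconia. The surface ectoderm outside the placodes forms epidermis, the lining of the mouth and, with other placodes, the lens, the olfactory epithelium and the anterior pituitary.

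Each value is the log2 of the ratio the authors deposited for a probe set, so 0 is the level of their baseline for that gene, and levels of different genes are not compared. A gene was called where limma's moderated test over 22 groups gave a Benjamini-Hochberg adjusted p under 0.05 among 19938 genes, and every adjusted p below comes from that test unless another fit is named. With all libraries 78 genes, 0.391% of those tested, passed. Of these, 62 were higher in the otic vesicle (0.311%) and 16 lower (0.0802%). Those counts rest on the spread estimated over all 22 groups. With the otic and ectoderm libraries alone, 0 genes were called higher and 1 lower, Pitx1, and with the E9.5 groups alone 1 was higher, Hs3st1, and 2 lower, Aldh1a3 and Pitx1.

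Libraries labelled otic vesicle 3 and 5 differed from the other 4. At least 2 log2 units separated them from all 4 others on 43 of the 19938 genes, chosen after their values were seen. Of these, 7 were higher and 36 lower in libraries 3 and 5. No such count is given for other pairs of otic libraries. Rax, a homeobox gene of eye and forebrain, read 4.04 and 5.05 in libraries 3 and 5, against -0.37 to 0.38 in the other 4 otic libraries. Vax2, a homeobox gene of the ventral eye, read 3.90 and 5.20, against -0.17 to 0.19. Six6, a homeobox gene of eye and pituitary, read 4.22 and 4.88, against -0.31 to 0.58. These 3 genes were thus near the baseline in otic libraries 1, 2, 4 and 6.

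The genes lower in these libraries included claudins, keratins and genes of the otic epithelium. Cldn7, a claudin of tight junctions, read -0.34 and -0.58 in otic libraries 3 and 5, against 5.10 to 6.48 in the other 4. Epcam, an epithelial adhesion molecule, read -0.21 and -1.46, against 3.66 to 4.16. Gata3, a zinc finger factor of the otic epithelium, read 0.81 and -0.24, against 3.35 to 5.08. The mean over 22 listed otic vesicle genes was 0.28 and -0.11 in libraries 3 and 5, against 0.94 to 1.66 in libraries 1, 2, 4 and 6. The mean over 22 forebrain and midbrain regulators was 0.94 in library 3 and higher still in library 5, against -0.24 to 0.21. The libraries labelled otic vesicle 3 and 5 therefore went against their label on these genes, and why was not tested. The differences of the genes named below are given with and without them. The values without them are no independent support for otic, epithelial, eye or forebrain genes, since libraries 3 and 5 stood apart on such genes. The same holds for any other gene on which they stood apart.

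**Figure D1:**
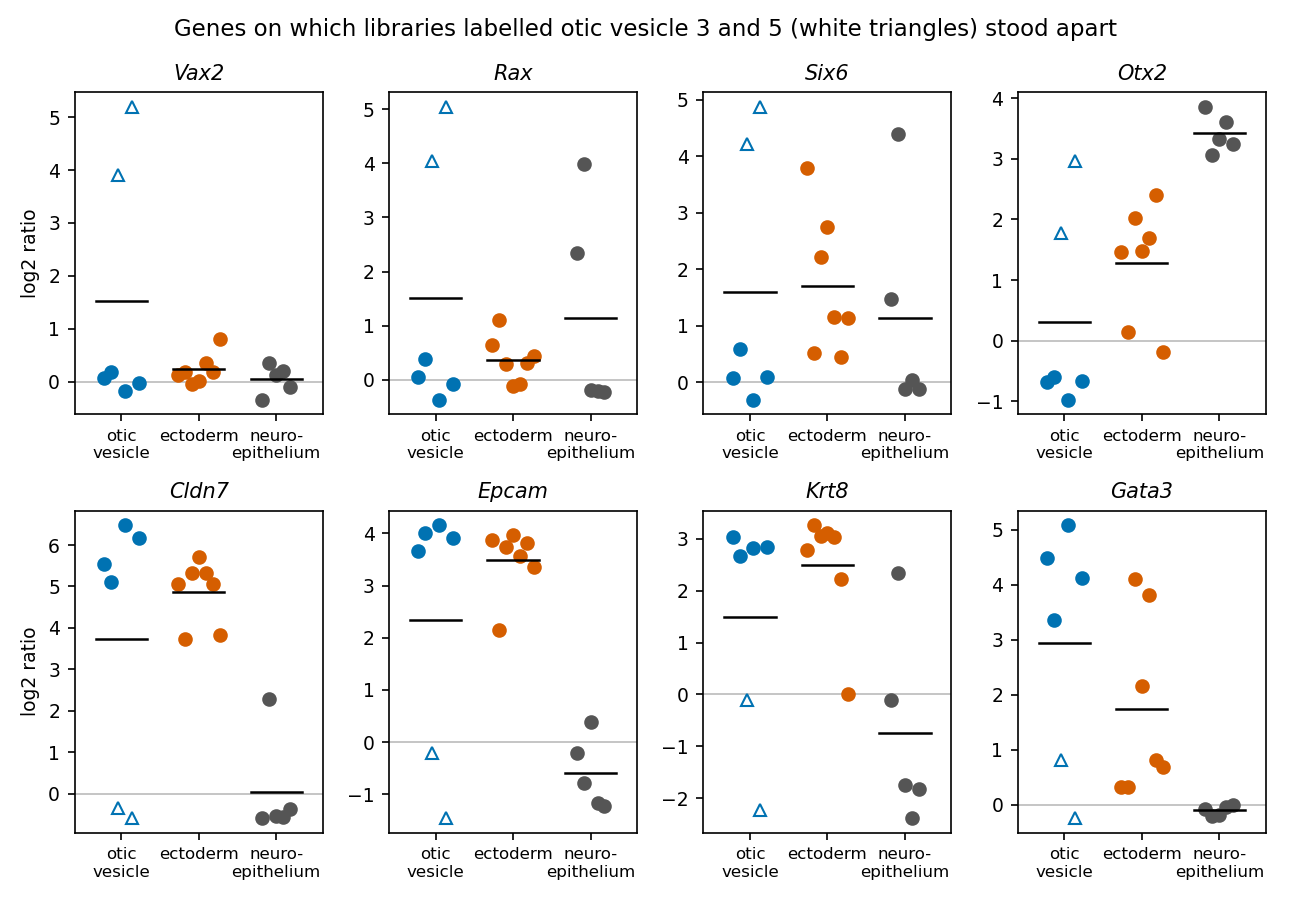
Log2 ratios of 8 genes in each library of E9.5 otic vesicle, epidermal ectoderm and neuroepithelium. Points are libraries, white triangles are otic libraries 3 and 5, and lines are group means. On Vax2, Rax and Six6 the triangles sit at 3.90 to 5.20 above the other otic libraries, and on Cldn7, Epcam, Krt8 and Gata3 they sit below them.

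The arrays differed in spread. The 5th percentile of the log2 ratios was -1.996 in otic library 3 and -1.392 to -0.429 in the other otic libraries. In ectoderm it was -3.458 in library 7, -1.675 in library 2, -1.519 in library 6 and -1.035 to -0.481 in the other 4. The median difference over all genes was 0.006 with all libraries and 0.004 without otic libraries 3 and 5. The mean over 17 cell cycle genes was -0.41 to 0.74 in otic libraries 1, 2, 4 and 6, -0.94 and 0.17 in libraries 3 and 5, and -2.30 to -0.15 in ectoderm, and the part of these array differences in the results was not tested.

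The 16 genes lower in the otic vesicle were led by Pitx1, a homeobox factor of the oral ectoderm and first pharyngeal arch, and Aldh1a3, an enzyme that makes retinoic acid. Pitx1 (probe set 10409551) read 0.14, 0.67, 1.03, -0.74, -0.19 and -0.27 in otic libraries 1 to 6, against 5.35, 4.94, 5.14, 5.27, 4.99, 3.25 and 4.98 in ectoderm libraries 1 to 7. The groups did not overlap, and ectoderm library 6 was the lowest of its group. Its mean was 0.11 ± 0.65 in the otic vesicle (SD, n = 6) and 4.84 ± 0.72 in ectoderm (SD, n = 7). The difference was -4.74 ± 0.60 (SE, adjusted p = 1.5e-07), and -4.90 ± 0.69 without otic libraries 3 and 5 (adjusted p = 3.7e-07). The ectoderm mean was the highest of the 22 groups, ahead of E10.5 Rathke's pouch, the pituitary rudiment, at 4.35.

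Aldh1a3 (probe set 10564417) read -0.07, 0.18, 0.54, -0.09, 0.39 and 0.13 in otic libraries 1 to 6, against 4.90, 4.07, 4.76, 4.51, 5.22, 1.04 and 0.83 in ectoderm libraries 1 to 7. No library of 1 group reached the other, but ectoderm libraries 6 and 7 stood 3 log2 units or more below the other 5. The difference was -3.44 ± 0.35 (SE, adjusted p = 3.9e-11), and -3.58 ± 0.40 without otic libraries 3 and 5 (adjusted p = 2.8e-10). The SD was 1.87 in ectoderm and 0.25 in the otic vesicle, and with these groups alone the adjusted p was 0.9 by limma. Isl1 (probe set 10412335), a LIM homeobox factor of placodes and sensory neurons, followed the same ectoderm libraries. It read -0.45 to 0.98 in the otic vesicle, against 4.05 to 4.71 in ectoderm libraries 1 to 5 and -0.42 and -0.54 in libraries 6 and 7. Its difference was -2.93 ± 0.66 (SE, adjusted p = 0.018), and without otic libraries 3 and 5 it was -2.74 and did not pass (adjusted p = 0.05). The call ended without ectoderm library 1 (-2.66, adjusted p = 0.051) and without library 2 (-2.67, adjusted p = 0.06).

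Mt1 (probe set 10574027), a metallothionein that binds zinc and copper, read -0.25, -1.93, -3.52, -1.82, -0.26 and -0.74 in otic libraries 1 to 6, against 0.08, 0.65, 0.47, 0.78, 0.39, 1.04 and 0.71 in ectoderm libraries 1 to 7. The groups did not overlap, and otic libraries 1 and 5 came closest to the ectoderm. The difference was -2.01 ± 0.36 (SE, adjusted p = 0.00046), or -1.77 without otic libraries 3 and 5 (adjusted p = 0.0021), where the call ended on leaving out otic library 4 too (-1.56, adjusted p = 0.053). With the arrays of low 5th percentile left out it was -1.43 (adjusted p = 0.13).

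The promoter of Mt1 is shown because metallothionein genes carry metal response elements, whose core was searched as TGCACNC or TGCGCNC on both strands. In the RefSeq window at chr8:94178839-94179138 (GRCm38.p6, plus strand), from 250 bases before to 50 after the annotated start, capitals mark 3 matches, which begin at positions -23, 3 and 21 counted from the start as base 1.
Mt1: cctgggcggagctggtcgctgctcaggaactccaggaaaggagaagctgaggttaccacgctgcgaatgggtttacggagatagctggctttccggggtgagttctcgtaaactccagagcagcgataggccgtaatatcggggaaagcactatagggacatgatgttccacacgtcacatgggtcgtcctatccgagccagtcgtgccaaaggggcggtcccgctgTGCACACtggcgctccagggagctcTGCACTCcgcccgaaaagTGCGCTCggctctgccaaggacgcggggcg
The same letters were present in 25.6% of 27025 promoters of that length, so a match describes the sequence and not a site in use.

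BC048679, a gene known by a clone name, was lower by -2.40 (adjusted p = 0.00031), or -2.43 without otic libraries 3 and 5 (adjusted p = 0.00069). It read -0.19 to 0.37 in otic libraries, against 3.51 to 5.06 in ectoderm libraries 2 to 5 and -0.21 to 0.23 in libraries 1, 6 and 7. The groups thus overlapped, and with the E9.5 groups alone the adjusted p was 0.15 by limma. For S100a6, Dlk1 and Lypd2, single libraries ended the call. S100a6, a calcium-binding protein, read -3.07 to -0.47 in otic libraries, against -0.78 to 2.54 in ectoderm, a difference of -2.59 (adjusted p = 0.024) that ended without ectoderm library 1, otic library 4 or otic library 6 (adjusted p = 0.058 to 0.11). With otic libraries 3 and 5 left out it was -2.84 (adjusted p = 0.016), and ended without otic library 4 or 6 (adjusted p = 0.11 and 0.12). Dlk1, a membrane protein of the Delta family, was at -2.06 (adjusted p = 0.023) and at -2.61 without otic libraries 3 and 5 (adjusted p = 0.0014). Its call ended without ectoderm library 6 or 7, or otic library 1, 2 or 4 (adjusted p = 0.051 to 0.14). Lypd2, a surface protein of the Ly6 family, read -0.46 to 0.36 in the otic vesicle, against 2.58 to 3.82 in ectoderm libraries 1 to 4 and 0.35 to 0.88 in libraries 5 to 7. Its difference of -2.16 (adjusted p = 0.026) ended without ectoderm library 1, 2 or 4 or otic library 1, 4 or 6 (adjusted p = 0.053 to 0.13). It was -2.29 without otic libraries 3 and 5 (adjusted p = 0.03), and ended without the same libraries (adjusted p = 0.058 to 0.18).

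Several of the genes higher in the otic vesicle were high in otic libraries 1, 2, 4 and 6 and near the ectoderm level in libraries 3 and 5. Sox10 (probe set 10430458), a Sox factor of the otic epithelium and of neural crest, read 3.21, 2.66, 0.29, 3.30, -0.29 and 3.22 in otic libraries 1 to 6, against -0.21, -0.13, -0.33, -0.38, -0.14, -0.14 and 0.41 in ectoderm libraries 1 to 7. Libraries 3 and 5 overlapped the ectoderm, and the other 4 otic libraries did not. The difference was 2.19 ± 0.33 (SE, adjusted p = 1.1e-05), and 3.23 ± 0.28 without libraries 3 and 5 (adjusted p = 7.3e-15). With the E9.5 groups alone the adjusted p was 0.087 with all libraries and 7.1e-07 without otic libraries 3 and 5. Sox9 (probe set 10382328), a related Sox factor needed for placode invagination in mouse, read -0.61 to 2.06 in the otic vesicle, against -1.34 to -0.56 in ectoderm. Its difference was 1.53 ± 0.28 (SE, adjusted p = 0.00068), or 2.18 without otic libraries 3 and 5 (adjusted p = 1.8e-08).

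Krt23 (probe set 10390860), a type I keratin, read 3.18, 1.72, 0.15, 5.28, 0.14 and 5.05 in otic libraries 1 to 6, against -0.16 to 0.39 in all 7 ectoderm libraries. Again libraries 3 and 5 were at the ectoderm level. The difference was 2.39 ± 0.34 (SE, adjusted p = 3.4e-06), or 3.61 without otic libraries 3 and 5 (adjusted p = 8.8e-20). Its SD was 2.3 in the otic vesicle and 0.19 in ectoderm. With the E9.5 groups alone the adjusted p of Krt23 was 0.091 by limma, or 1.1e-06 without otic libraries 3 and 5. Hs3st1 (probe set 10529732), an enzyme that adds sulfate to heparan sulfate chains, read 1.42, 3.36, 0.76, 2.78, 0.34 and 4.34, against -0.20 to 0.60 in ectoderm, with otic library 5 alone inside the ectoderm range. Its difference was 2.05 ± 0.30 (SE, adjusted p = 5.8e-06), or 2.86 without otic libraries 3 and 5 (adjusted p = 1.7e-12).

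The promoters of Krt23 and Hs3st1 are given because both genes passed with every single library left out, as Sox10 and Sox9 did, and the Sox core ACAAAG was searched in them on both strands. The windows are chr11:99493071-99493370 and chr5:39644582-39644881, both on the minus strand of GRCm38.p6, and neither held these letters, so no base is in capitals.
Krt23: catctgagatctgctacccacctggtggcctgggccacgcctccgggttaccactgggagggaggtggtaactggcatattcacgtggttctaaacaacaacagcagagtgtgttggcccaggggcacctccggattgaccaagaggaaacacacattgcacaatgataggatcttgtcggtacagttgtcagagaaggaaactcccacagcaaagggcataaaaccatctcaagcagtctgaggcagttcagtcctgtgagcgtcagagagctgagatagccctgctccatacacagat
Hs3st1: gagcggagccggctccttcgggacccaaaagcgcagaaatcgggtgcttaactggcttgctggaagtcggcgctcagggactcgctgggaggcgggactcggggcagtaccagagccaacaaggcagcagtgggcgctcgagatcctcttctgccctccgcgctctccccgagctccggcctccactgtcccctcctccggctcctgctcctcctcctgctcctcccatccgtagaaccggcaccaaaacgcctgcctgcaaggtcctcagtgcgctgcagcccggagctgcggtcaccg
ACAAAG stood in 18.7% of the 27025 promoters, in 9 of the 46 promoters matched among the higher genes and in 1 of the 9 among the lower genes, and nothing about a factor follows from its absence.

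In 25 genes, 0.125% of all, the otic and ectoderm libraries did not overlap, and 7 of these were called, among them Pitx1, Aldh1a3 and Mt1. The count was 229 genes, 1.15%, without otic libraries 3 and 5, 73 of them called. Of the 78 genes, 16 were called with every library left out in turn, 12 higher and 4 lower. Beside the 4 genes above, those higher included Gjb1, a gap junction connexin, Prr15, a proline-rich protein, and Slc26a9, an anion transporter, and those lower were Pitx1, Aldh1a3, Mt1 and BC048679. These omissions kept the spread pooled over 22 groups, and with the E9.5 groups alone only Hs3st1, Pitx1 and Aldh1a3 passed. Gjb1 and Cmtm5 were singled out after their values were seen. Gjb1 read 2.34, 3.49, 0.15, 1.66, -0.06 and 2.43 in otic libraries 1 to 6, against -0.07 to 0.26 in ectoderm, a difference of 1.59 ± 0.21 (SE, adjusted p = 6e-07), or 2.40 without otic libraries 3 and 5 (adjusted p = 7.8e-24). Car4, a membrane carbonic anhydrase, read 4.61 to 6.17 in 5 otic libraries, libraries 3 and 5 included, and 2.50 in otic library 2, against 0.07 to 2.53 in 6 ectoderm libraries and 5.95 in ectoderm library 1. The groups overlapped, and the difference was 2.82 (adjusted p = 0.0021), or 2.16 with arrays of low 5th percentile left out (adjusted p = 0.24). The difference without otic libraries 3 and 5 was 2.75 (adjusted p = 0.0078), and 2.23 when otic library 4 was left out too (adjusted p = 0.18).

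The anion transporter Slc26a9 was carried by otic libraries 1 and 4, at 1.93 and 2.88, with -0.01 to 0.52 in the other 4, against -0.15 to 0.09 in ectoderm. Its difference was 0.98 (adjusted p = 0.00057), or 1.41 without otic libraries 3 and 5 (adjusted p = 3.2e-09). Prr15 read 0.51 to 3.53 in the otic vesicle, against 0.18 to 0.99 in ectoderm, a difference of 1.35 (adjusted p = 0.00038), or 1.84 without otic libraries 3 and 5 (adjusted p = 5.6e-08). Cmtm5, a membrane protein of the chemokine-like family, read 2.93, 4.02, 0.46, 3.77, -0.18 and 0.67 in otic libraries 1 to 6, against -0.38 to 0.37, a difference of 1.94 (adjusted p = 0.0007), or 2.84 without otic libraries 3 and 5 (adjusted p = 2.1e-09). Here otic library 6 stood with libraries 3 and 5, far below libraries 1, 2 and 4. Moxd1, a copper monooxygenase relative, read 2.49, 4.92 and 4.49 in otic libraries 1, 4 and 6 and -0.20 to 0.28 in the other 3, against -0.24 to 0.26. Its difference of 2.11 (adjusted p = 0.0011) did not pass without otic library 4 (1.53, adjusted p = 0.051), and was 3.16 without otic libraries 3 and 5 (adjusted p = 1.5e-09).

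**Figure D2:**
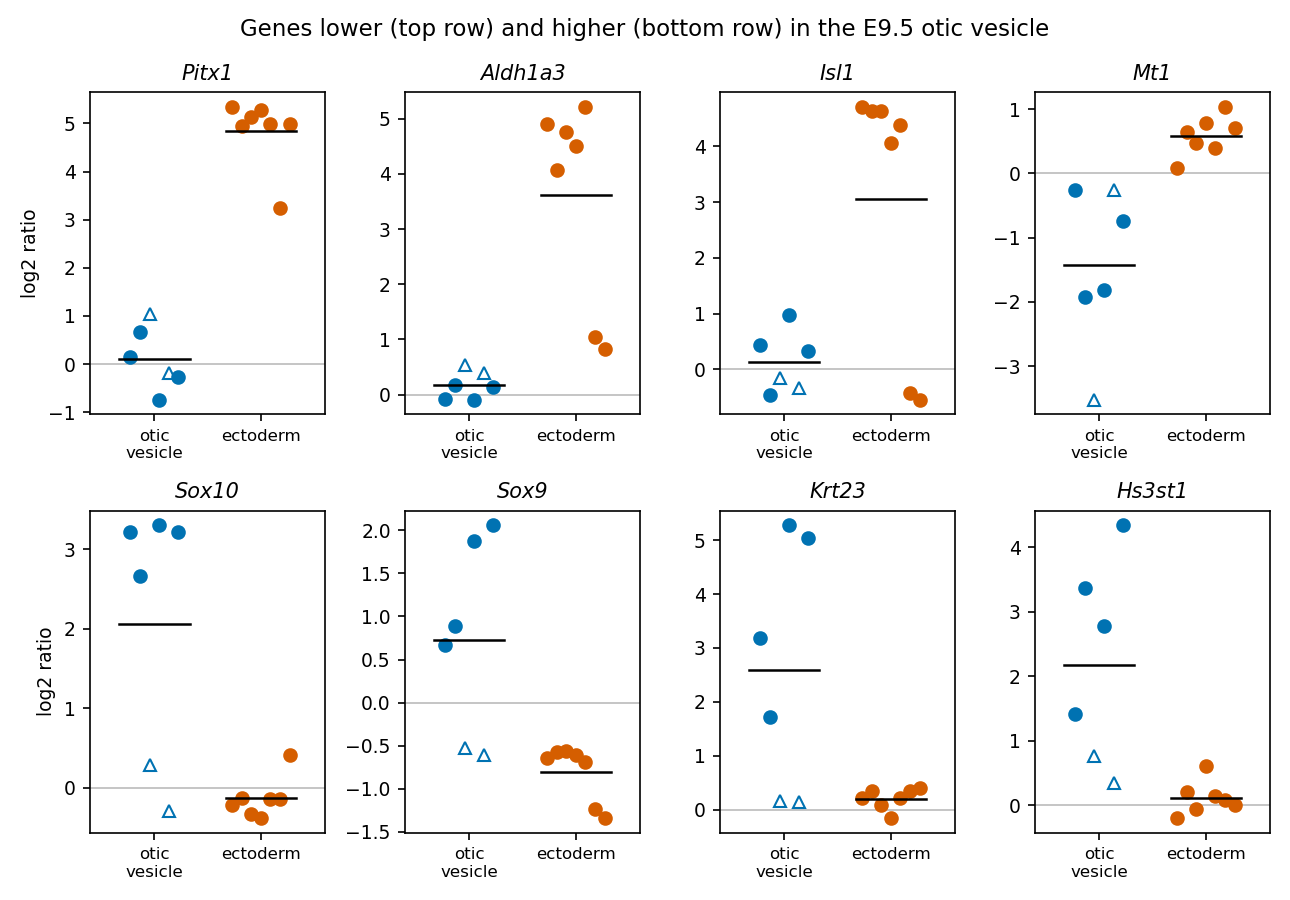
Log2 ratios of 8 genes in 6 otic vesicle and 7 ectoderm libraries, with group means as lines and otic libraries 3 and 5 as white triangles. Pitx1, Aldh1a3 and Mt1 do not overlap between tissues, Sox10 and Krt23 overlap through otic libraries 3 and 5, and Sox9 and Hs3st1 through otic library 5.

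Of 22 measured otic vesicle genes on a list chosen for the tissue, 6 were higher and 16 did not pass, with a median difference of 0.17, against 0.006 over all genes. Without otic libraries 3 and 5, 168 genes of all tested were higher (0.843%) and 22 lower (0.11%), and on the list 9 of 22 were higher with a median of 0.33. Beside Sox10 and Sox9 these were Gbx2, Tbx2, Fbxo2 and Oc90 in both fits, and Gata3, Pax8 and Hmx2 in the second. Gbx2, a homeobox gene needed for the dorsal inner ear, read 1.21, 0.54, 0.18, 2.95, -0.30 and 3.77 in otic libraries 1 to 6, against -0.67 to 0.22 in ectoderm. Its difference of 1.62 (adjusted p = 0.0024) did not pass without otic library 4 (1.30, adjusted p = 0.057) or 6 (1.14, adjusted p = 0.055), and was 2.34 without otic libraries 3 and 5 (adjusted p = 1e-07). Tbx2, a T-box repressor, read 0.45 to 3.43, against -0.24 to 1.27, and its difference of 1.75 (adjusted p = 0.018) did not pass without otic library 2 (adjusted p = 0.053), 4 (adjusted p = 0.17) or 6 (adjusted p = 0.055). It was 2.36 without otic libraries 3 and 5 (adjusted p = 0.00018).

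Fbxo2, a subunit of a ubiquitin ligase found in the inner ear, and Oc90, the main protein of otoconia, were carried by fewer libraries. Fbxo2 read 4.43 and 4.26 in otic libraries 1 and 4 and 0.00 to 1.06 in the other 4, against -0.19 to 0.81 in ectoderm. Its difference of 1.65 (adjusted p = 0.0085) did not pass without otic library 1 (1.13, adjusted p = 0.099) or 4 (1.16, adjusted p = 0.17), and was 2.40 without otic libraries 3 and 5 (adjusted p = 1.4e-06). Oc90 read 2.12 and 3.41 in otic libraries 1 and 4 and -0.30 to 0.06 elsewhere, against -0.31 to 0.04 in ectoderm. Its difference of 0.96 (adjusted p = 0.026) became 0.45 without otic library 4 (adjusted p = 0.39), and did not pass without otic library 1 (0.71, adjusted p = 0.18) or ectoderm library 6 (0.93, adjusted p = 0.056). It was 1.37 without otic libraries 3 and 5 (adjusted p = 0.00015), or 0.65 when otic library 4 was left out too (adjusted p = 0.14). Gata3 overlapped the ectoderm, where it read 4.11, 2.16 and 3.82 in libraries 3, 4 and 5 and 0.32 to 0.81 in the other 4. Its difference was 1.19 with all libraries (adjusted p = 0.51) and 2.51 without otic libraries 3 and 5 (adjusted p = 0.044), a call that ended without ectoderm library 1, 2, 6 or 7 or otic library 1, 4 or 6 (adjusted p = 0.087 to 0.3). Pax8, a paired box gene of the early placode, differed by 0.73 with all libraries (adjusted p = 0.2) and by 1.15 without otic libraries 3 and 5 (adjusted p = 0.01), or 0.72 when otic library 4 was left out too (adjusted p = 0.48). Hmx2, a homeobox gene of the dorsal vesicle, differed by 0.65 with all libraries (adjusted p = 0.24) and by 1.00 without otic libraries 3 and 5 (adjusted p = 0.025), which ended without ectoderm library 4 or otic library 1 or 4 (adjusted p = 0.051 to 0.33). Pax2, a paired box gene usually taken to mark the vesicle, read 0.04 to 0.56 in otic libraries and -0.15 to 0.73 in ectoderm and did not pass (difference 0.11, adjusted p = 0.78, or 0.09 without otic libraries 3 and 5, adjusted p = 0.81).

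Of 17 genes of inner ear matrix and ion transport, Col9a1, a chain of collagen IX, was higher. It read 2.25, 1.22 and 2.71 in otic libraries 4, 5 and 6 and 0.02 to 0.27 in the other 3, against -0.53 to 0.13 in ectoderm. The difference of 1.32 (adjusted p = 0.011) did not pass without otic library 4 (1.10, adjusted p = 0.13) or 6 (1.00, adjusted p = 0.11). It was 1.52 without otic libraries 3 and 5 (adjusted p = 0.0024), and ended there too without otic library 4 (1.21, adjusted p = 0.11) or 6 (1.06, adjusted p = 0.13). Col2a1, the chain of collagen II, joined it without otic libraries 3 and 5, at 0.98 (adjusted p = 0.034), against 0.60 with all libraries (adjusted p = 0.28), a call that ended without ectoderm library 1, 2, 3 or 6 or otic library 2 or 4 (adjusted p = 0.054 to 0.66).

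**Figure D3:**
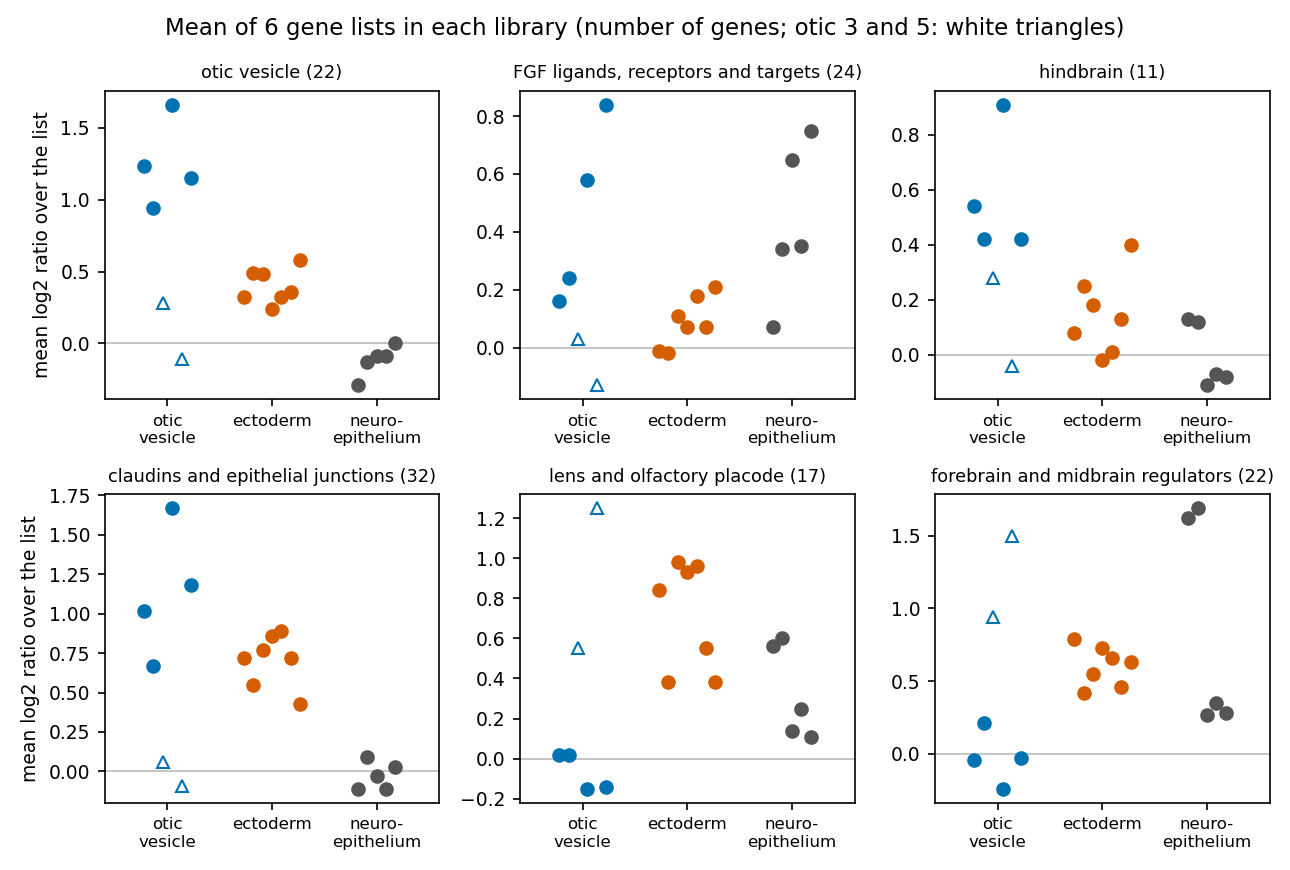
Mean log2 ratio over each of 6 gene lists in every library of otic vesicle, epidermal ectoderm and neuroepithelium, with the number of genes in brackets and otic libraries 3 and 5 as white triangles. Otic libraries 1, 2, 4 and 6 lie at 0.94 to 1.66 on the otic vesicle list, above the ectoderm libraries at 0.24 to 0.58.

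Several signalling and regional genes passed without otic libraries 3 and 5. Of 24 genes of fibroblast growth factor signalling 0 passed with all libraries and 3 were higher without these, the ligands Fgf10 and Fgf3 and the target Etv5. Fgf10 read 1.42, 0.52, 0.03, 3.09, 0.04 and 3.63 in otic libraries 1 to 6, against -0.05 to 0.76 in ectoderm, a difference of 1.92 ± 0.32 (SE, adjusted p = 3.1e-05), or 1.21 with all libraries (adjusted p = 0.059). Fgf3 was at 0.88 with all libraries (adjusted p = 0.16) and at 1.27 without otic libraries 3 and 5 (adjusted p = 0.013), which did not pass without otic library 4 (1.28, adjusted p = 0.066) or 6 (0.91, adjusted p = 0.2). Etv5 was at 0.90 with all libraries (adjusted p = 0.24) and at 1.52 without otic libraries 3 and 5 (adjusted p = 0.0097), which did not pass without otic library 4 (1.19, adjusted p = 0.24) or 6 (1.39, adjusted p = 0.061). Of 27 Wnt genes Sp5, a target of the pathway, was higher, at 3.08, 3.57, -0.15, 2.29, 0.00 and 3.01 in otic libraries 1 to 6, against -0.37 to 1.30 in ectoderm. Its difference of 1.59 (adjusted p = 0.041) ended on leaving out any library but otic 3 and 5 and ectoderm 5 and 6 (adjusted p = 0.062 to 0.16), and was 2.61 without otic libraries 3 and 5 (adjusted p = 1.4e-06). None of 21 BMP genes or 10 Hedgehog genes passed in either fit by limma, where 0.391% and 0.953% of all genes passed.

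Lfng, a glycosyltransferase that modifies Notch, was higher by 1.57 (adjusted p = 0.00014), and Hes1, a Notch target, was lower by -0.74 (adjusted p = 0.031), without otic libraries 3 and 5, the only 2 of 19 neurosensory and Notch genes that passed in either fit. With all libraries Lfng was at 1.02 (adjusted p = 0.072) and Hes1 at -0.63 (adjusted p = 0.073). Hes1 did not pass without ectoderm library 1 or 3, or otic library 2 or 4 (adjusted p = 0.057 to 0.25). The hindbrain gene Hoxb2 read 2.23, 1.99, 0.55, 2.58, 0.11 and 1.90 in otic libraries 1 to 6, against -0.15 to 0.95 in ectoderm. Its difference was 1.87 without otic libraries 3 and 5 (adjusted p = 0.01), 1.74 when otic library 4 was left out too (adjusted p = 0.1) and 1.26 with all libraries (adjusted p = 0.17).

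Of 22 forebrain and midbrain regulators 0 passed with all libraries, where 0.391% of all genes passed, with a median difference of -0.14. Without otic libraries 3 and 5, which stood apart by high levels of such genes, 3 were lower, Six3, Otx2 and Pax6, with a median of -0.40. Six3, a homeobox gene of forebrain and lens, read 1.80 and 2.35 in otic libraries 3 and 5 and -0.57 to 0.07 in the other 4, against 1.32 to 3.00 in ectoderm. Without libraries 3 and 5 its difference was -2.03 ± 0.38 (SE, adjusted p = 0.00031), and -1.26 with them (adjusted p = 0.12). Otx2, a homeobox gene of forebrain and anterior placodes, was at -2.02 without them (adjusted p = 0.011), or -0.99 with them (adjusted p = 0.43), and did not pass when otic library 4 was left out too (-1.94, adjusted p = 0.086). Pax6, a paired box gene of eye and olfactory placode, was at -1.20 with them (adjusted p = 0.43) and at -2.20 without them (adjusted p = 0.042), a call that ended on leaving out any of ectoderm libraries 1, 3, 4 or 5 or otic libraries 1, 2, 4 or 6 (adjusted p = 0.06 to 0.11). Of 17 lens and olfactory placode genes, Aldh1a3 fell with all libraries, and Aldh1a3, Six3 and Pax6 fell without libraries 3 and 5.

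Without otic libraries 3 and 5, 190 genes passed, 0.953% of those tested, and 127 of them did not pass with all libraries. Rtn1, Cda and Slitrk6 were among those with large differences. Rtn1 and Cda were among the 36 genes on which libraries 3 and 5 stood low. Rtn1, Cda and Slitrk6 all passed only without these libraries, so their values without them are no independent support. Rtn1, a reticulon of the endoplasmic reticulum, read 2.62 to 3.32 in otic libraries 1, 2, 4 and 6 and -1.77 and -2.86 in libraries 3 and 5. Ectoderm libraries read -2.68 to 1.42 (difference 3.97 without otic libraries 3 and 5, adjusted p = 4.1e-05, or 2.22 with all libraries, adjusted p = 0.15). Cda, which deaminates cytidine, read 3.48 to 4.18 in otic libraries 1, 2, 4 and 6 and -0.07 and -0.61 in libraries 3 and 5. Ectoderm libraries read -0.38 to 1.86 (difference 3.56 without otic libraries 3 and 5, adjusted p = 0.00016, or 2.17 with all libraries, adjusted p = 0.11). Slitrk6, a membrane protein of neurons and inner ear, read 5.05, 5.18 and 5.50 in otic libraries 1, 4 and 6 and 0.97 in library 2, against -0.36 to 3.31. Its difference of 3.65 (adjusted p = 0.0049) did not pass when otic library 4 (3.32, adjusted p = 0.072) or 6 (3.21, adjusted p = 0.056) was left out too, and was 2.18 with all libraries (adjusted p = 0.22).

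**Figure D4:**
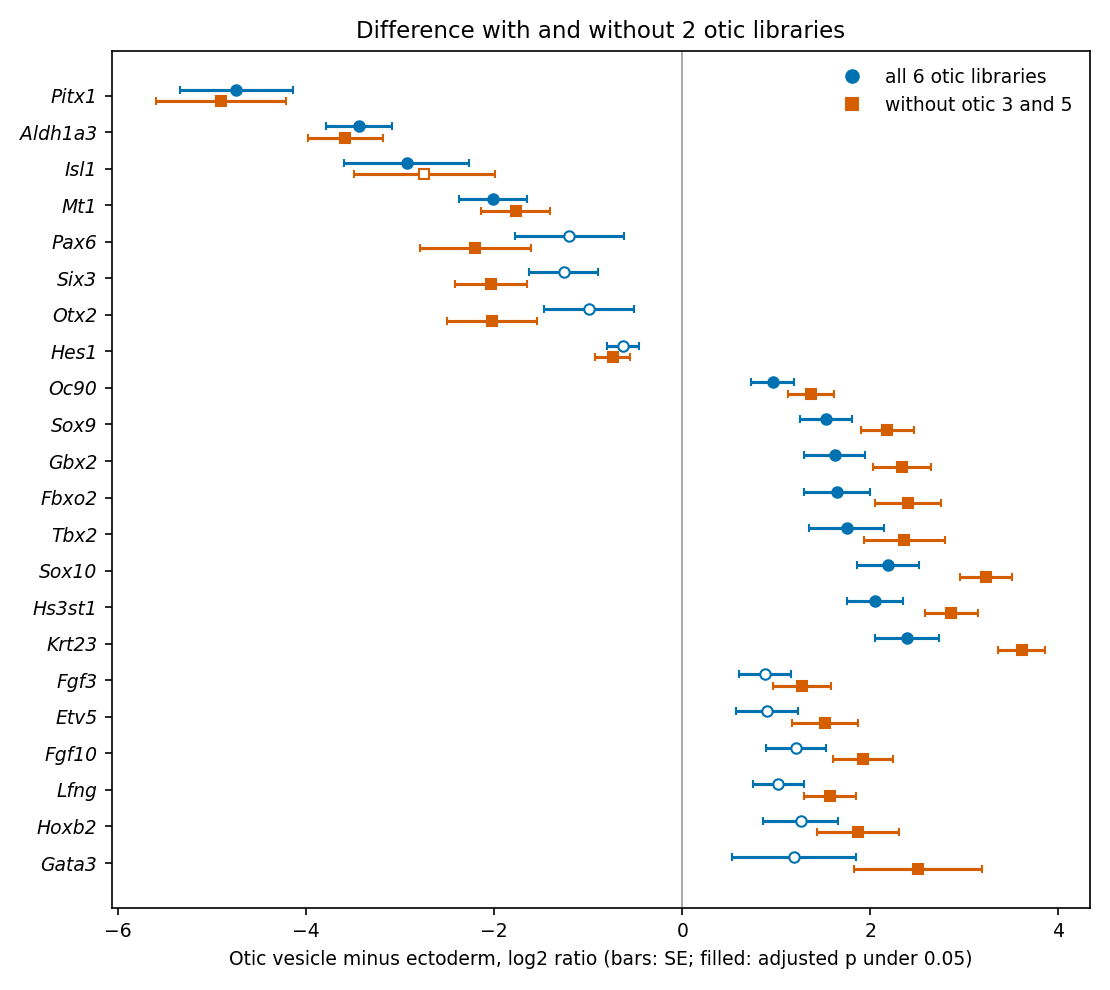
Difference in log2 ratio, otic vesicle minus ectoderm, with SE, for 22 genes, over all otic libraries (circles) and without libraries 3 and 5 (squares). Filled symbols passed at an adjusted p under 0.05, and Six3, Otx2, Fgf10, Lfng and Gata3 are among those that passed in the second set alone.

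Over all genes 0.391% passed with all libraries and 0.953% without otic libraries 3 and 5. Low counts on lists this short therefore say little about epithelial genes. Of 29 surface ectoderm genes 0 passed with all libraries (median difference -0.13) and 1, Wnt6, a ligand of surface ectoderm, was higher without otic libraries 3 and 5. Wnt6 was at 1.54 there (adjusted p = 0.038) and at 0.81 with all libraries (adjusted p = 0.42), a call that ended without ectoderm library 1, 2, 4 or 6 or otic library 1, 4 or 6 (adjusted p = 0.058 to 0.2). Of 32 claudins and junction genes 1 was higher, Marveld3, a tight junction protein, at 0.80 (adjusted p = 0.018), which ended without ectoderm library 1 or 6 or otic library 1, 4 or 6 (adjusted p = 0.052 to 0.16). Marveld3 was at 1.36 without otic libraries 3 and 5 (adjusted p = 1.1e-09), and 2 of the 32 were higher, with Cdh3, a cadherin, at 1.18 (adjusted p = 0.0096). Cdh3 was at 0.66 with all libraries (adjusted p = 0.29), and its call ended when otic library 4 (0.63, adjusted p = 0.58) or 6 (1.06, adjusted p = 0.069) was left out too. Outside the list, the claudin Cldn24, named after its values were seen, was higher by 0.29 (adjusted p = 0.034), or 0.37 without otic libraries 3 and 5 (adjusted p = 0.0034). The Cldn24 call with all libraries ended without ectoderm library 3 or 7 or otic library 4 or 6 (adjusted p up to 0.39, at a difference of 0.17, without otic library 4). Cldn24 read 0.74 in otic library 4 and -0.05 to 0.26 in the other otic libraries, against -0.46 to 0.02 in ectoderm. Its call without otic libraries 3 and 5 ended when otic library 4 was left out too (0.20, adjusted p = 0.46). Epcam read 3.66 to 4.16 in otic libraries 1, 2, 4 and 6, against 2.14 to 3.98 in ectoderm, and its difference there was 0.44 ± 0.60 (SE, adjusted p = 0.81), or -1.15 with all libraries (adjusted p = 0.51). Dlx5, a homeobox gene of placodes and otic vesicle, read 2.11 to 2.95 in the 4 libraries, against 1.24 to 2.98, with a difference of 0.12 ± 0.71 (SE, adjusted p = 0.97), or -1.42 with all libraries (adjusted p = 0.45).

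Markers of other cells were read in the same libraries. With all libraries 1 of 15 cranial ganglion genes fell, Isl1, and of 11 neural crest genes 2 were higher, Sox10 and Sox9, both also on the otic list. Without otic libraries 3 and 5, 3 of the 11 were higher, the third being Erbb3, which is not on the otic list. The Erbb3 call ended when ectoderm library 7 or otic library 4 or 6 was left out too (adjusted p = 0.05 to 0.5). Of 23 mesenchyme genes 1 was higher, Cdh11, a cadherin of mesenchyme, at 1.63 (adjusted p = 0.018), a call that ended without otic library 4 (1.39, adjusted p = 0.15) or 5 (1.40, adjusted p = 0.077). It was 1.69 without otic libraries 3 and 5 (adjusted p = 0.013), and ended there without otic library 4 (1.32, adjusted p = 0.3) or 6 (1.65, adjusted p = 0.053). Of 23 neural epithelium genes 1 was higher, Vim, the intermediate filament vimentin, at 1.62 (adjusted p = 0.011), which ended without ectoderm library 6 or 7 or otic library 4 (adjusted p = 0.05 to 0.067), and at 2.00 without otic libraries 3 and 5 (adjusted p = 0.00031). None of 14 endothelial, 8 erythroid, 12 macrophage or 17 cell cycle genes passed by limma with all libraries or without otic libraries 3 and 5. Over all genes 0.391% and 0.953% passed in these fits, too few for short lists to tell. The mesenchyme list mean was -0.31 to 0.30 in otic libraries 1, 2, 4 and 6, 0.15 and -0.23 in libraries 3 and 5, and -0.39 to 0.43 in ectoderm. The part of these cells in the differences above was not tested.

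The 62 higher genes were split at an ectoderm mean of -0.5, a limit set after the values were seen, on a level that is part of the difference and runs on across the limit, so the ectoderm medians describe the split. For 45, those with an ectoderm mean of -0.5 or above, the median otic mean was 1.33, or 1.88 in libraries 1, 2, 4 and 6 and 0.14 in libraries 3 and 5, against a median of -0.02 in ectoderm. For the other 17, among them Sox9, Cdh11, Vim, Pepd, a dipeptidase, Smpd2, a sphingomyelinase, and Maf1, a repressor of RNA polymerase, the median otic mean was 0.57, against -1.44 in ectoderm. The ectoderm median was -2.31 in libraries 2, 6 and 7, the ectoderm libraries of lowest 5th percentile, and -0.97 in the other 4. Maf1 read -0.29 to 0.95 in otic libraries, against -3.72, -3.87 and -4.04 in ectoderm libraries 2, 6 and 7 and -1.24 to -0.09 in the other 4. Its difference of 2.39 (adjusted p = 0.015) ended without ectoderm library 2, 6 or 7 or otic library 4 (adjusted p = 0.055 to 0.069). It was 2.59 without otic libraries 3 and 5 (adjusted p = 0.01), or 2.44 when otic library 4 was left out too (adjusted p = 0.094), and 1.09 with arrays of low 5th percentile left out (adjusted p = 0.55). Pepd read -0.41 to 1.57, against -3.64 to -0.46, with a difference of 2.97 (adjusted p = 0.023) that ended without ectoderm library 2 or 7 or otic library 2, 4 or 6 (adjusted p = 0.055 to 0.1). It was 3.32 without otic libraries 3 and 5 (adjusted p = 0.012), and ended there without otic library 2 (3.10, adjusted p = 0.053) or 4 (3.18, adjusted p = 0.091). With arrays of low 5th percentile left out, 28 of the 45 and 5 of the 17 were still called, and in all 44 genes were higher and 37 lower. Quantile normalization gave 44 higher and 22 lower and array weights 56 and 26, so the share higher, 79.5% here, was 54.3%, 66.7% and 68.3% in these settings.

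**Figure D5:**
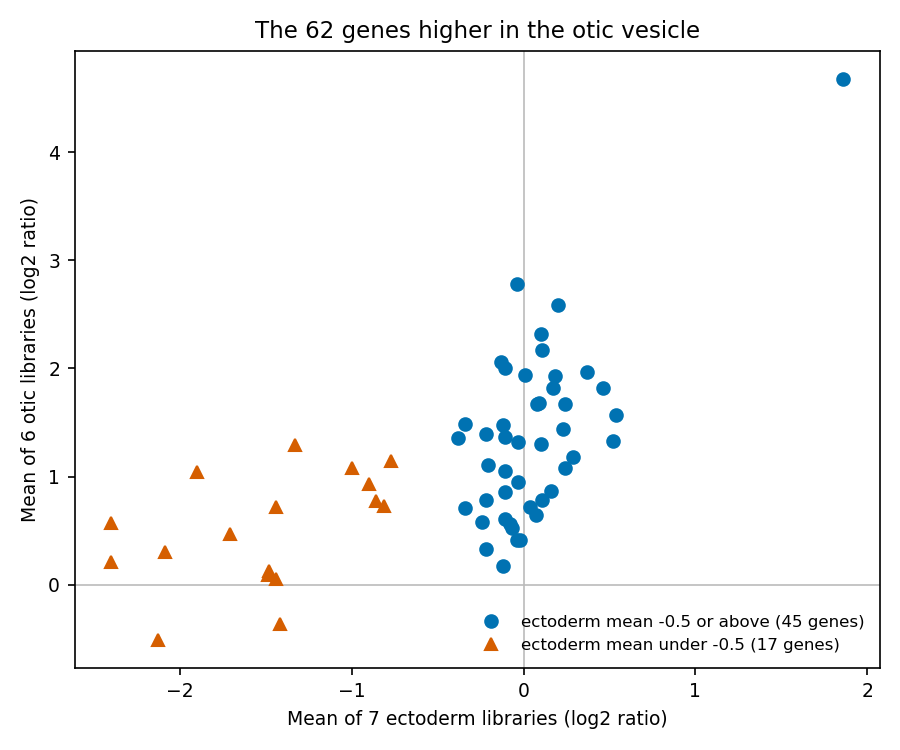
Mean log2 ratio over 6 otic vesicle libraries against the mean over 7 ectoderm libraries for the 62 genes higher in the otic vesicle. The 45 circles have an ectoderm mean of -0.5 or above, and the 17 triangles a lower one, with otic means from -0.51 to 1.29.

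The otic vesicle was also set against 5 libraries of E9.5 neuroepithelium, a comparison that shares the otic libraries. Here 165 genes, 0.828%, passed, 91 higher (0.456%) and 74 lower (0.371%), and without otic libraries 3 and 5, 274 passed (1.37%). Of the 62 genes higher than ectoderm, 29 were also higher than neuroepithelium, and of the 16 lower than ectoderm 0 were lower than neuroepithelium in this limma test. Sox10 was higher than neuroepithelium by 2.52 (adjusted p = 1.2e-06), Krt23 by 2.64 (adjusted p = 8.4e-07), Hs3st1 by 2.45 (adjusted p = 3.8e-07), Tbx2 by 2.42 (adjusted p = 0.00024) and Fbxo2 by 1.97 (adjusted p = 0.00077), each also on leaving out any of the 11 libraries. Without otic libraries 3 and 5 these differences were 3.55, 3.86, 3.26, 3.03 and 2.72 in that order. Cldn6, an epithelial claudin, differed by 3.32 (adjusted p = 0.0052) from neuroepithelium and by -0.72 (adjusted p = 0.76) from ectoderm, or by 4.98 (adjusted p = 3.1e-07) and 0.94 (adjusted p = 0.56) without otic libraries 3 and 5. Of the claudin and junction genes 7 were higher than neuroepithelium. Otx2 was lower than neuroepithelium by -3.11 (adjusted p = 4.9e-05), or -4.15 without otic libraries 3 and 5 (adjusted p = 6.1e-09). Pitx1 differed from neuroepithelium by -0.29 (adjusted p = 0.93) and Aldh1a3 by 0.10 (adjusted p = 0.96), or by -0.44 and -0.04 without otic libraries 3 and 5 (adjusted p = 0.98 and 1.00). On Pitx1, however, neuroepithelium library 2 alone read 3.64, and the other neuroepithelium libraries read -0.65 to -0.22.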

How the data were processed

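Per the submitters' processing notes the arrays were processed with RMA on genome build mm9. The authors deposited 1 linear ratio per probe set and sample, and the baseline of these ratios is not given in the sources used here. In the deposited ratio table each probe set has a median of 1 over 1 set of 21 samples. Of 35557 probe sets 28856 had values, and 21789 of these had a single gene symbol in GEO's platform annotation, of which 21698 matched RefSeq by Entrez ID. The probe set with the highest mean was kept for each of 19938 genes, 999 of which had several. Values are log2 ratios, with no filter on low values, and the smallest ratio, 0.01, occurs 62 times. Group means of 102 samples in 22 groups were fitted with limma 3.58.1 (R 4.3.3), empirical Bayes and Benjamini-Hochberg adjustment. An E9.5 sample with conflicting labels (mandibular arch or epidermal ectoderm) was left out. Array number limits the precision. The fit was tested on simulated data with the same spread in all groups of a gene, which cannot test the effect of unequal spread between groups. Lists, members and the rule for named genes (the largest called differences per direction and list members, predicted genes and multigene families passed over) were chosen with earlier results of these data known. Outside that rule, Gbx2, Oc90, Pax2, Pax8, Hmx2, Epcam, Dlx5, Cldn6, Cldn7, Krt8, Rax, Vax2, Six6, Neurod1, Neurog1, Gjb1, Cmtm5, Cldn24, BC048679, Prr15, Slc26a9 and Cryab were named after their values were seen. Alternatives were quantile normalization, array weights, fewer groups, a replicate block, a trended prior, probe set means, the conflicting sample as ectoderm and each library left out. Low-tailed arrays, widely spread arrays, the 5th percentile as a covariate, neuroepithelium libraries left out, and the alternatives to the comparison without otic libraries 3 and 5 were chosen after seeing the data. Same-numbered otic and ectoderm libraries did not deviate together throughout (correlations from -0.218 to 0.469). Promoters are from RefSeq's table of GRCm38.p6, the first listed start of each gene, with 1 chromosome left out.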

Additional observations from a re-analysis of the deposited data

Results flagged for a closer look

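Dixon's gap ratio set 10 values apart from the rest of their group, among 96 group tests on 48 genes. Chance alone gives about 1 in 20 groups, but that rate does not hold for genes chosen by their values. Cyb5b, Ogfod3 and Trim13 passed only without otic libraries 3 and 5, so low values in library 3 are tied to their choice. In the otic vesicle, library 3 was low on Cyb5b, a cytochrome b5, at -3.83, on Ogfod3, an oxygenase family member, at -2.92 and on Trim13, a ubiquitin ligase, at -3.40. Otic library 2 was low on Trrap, a subunit of histone acetyltransferase complexes, at -3.40. Otic library 5 was high on Pax6 at 4.67. In ectoderm, library 1 was high on Car4 at 5.95, library 3 on Slitrk6, a neuronal membrane protein, at 3.31, library 5 on Moxd1, a monooxygenase, at 0.26 and library 7 on Sox10 at 0.41. Ectoderm library 6 was low on Pitx1 at 3.25.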

How the results depend on the processing

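With all libraries 62 genes were higher and 16 lower. Without otic libraries 3 and 5, 168 were higher, and without widely spread arrays 98. Array weights gave 26 lower, the 5th percentile as a covariate 25 and leaving out arrays of low 5th percentile 37. The compared groups alone gave 0 higher and 1 lower (0 and 2 with a replicate block, where the shared numbers do not pair libraries), and the E9.5 groups alone 1 and 2. Leaving out 1 library gave 15 to 151 higher and 7 to 33 lower, with 15 and 7 without otic library 4, 151 higher without otic library 3, 132 and 32 without ectoderm library 4, 108 and 33 without ectoderm library 5 and 41 and 9 without ectoderm library 2. Without otic libraries 3 and 5 (168 and 22), the E9.5 groups alone gave 74 and 6, the compared groups alone 14 and 1, low-tailed arrays left out 82 and 45 and quantile normalization 35 lower. Leaving out 1 more library gave 70 to 232 higher and 6 to 46 lower, with 70 and 6 without otic library 4, 46 lower without ectoderm library 4 and 42 without ectoderm library 5. Against neuroepithelium 91 were higher, or 192 without otic libraries 3 and 5, and leaving out 1 library gave 56 to 152 higher and 53 to 90 lower, with 56 without otic library 4 and 152 without otic library 5. Over 180 named genes and 25 settings 370 values lost a call, 112 gained one, 4018 did neither and 0 reversed. The causes were not tested.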

Other observations

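The E9.5 sample whose labels name both mandibular arch and epidermal ectoderm was in no group. It read 2.37 on Pitx1, -0.11 on Aldh1a3 and 1.38 on Isl1. Its epithelial genes read 2.13 for Epcam, 3.89 for Cldn6, 3.66 for Cldn7 and 2.66 for Krt8. Its Barx1, a homeobox gene of arch mesenchyme, read 4.36.

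Neurod1 and Neurog1, factors of neuroblasts that leave the vesicle, varied among otic libraries. Neurod1 read 2.81 and 3.86 in otic libraries 4 and 6 and -0.24 to 0.28 in the other 4, against -0.25 to 1.05 in 6 ectoderm libraries and 2.69 in ectoderm library 4 (difference 0.61, adjusted p = 0.66 in limma). Neurog1 read -0.04 to 3.42 in otic libraries, against -0.08 to 2.17 in ectoderm (difference 0.47, adjusted p = 0.71 in limma). Cryab, a lens crystallin, read -0.34 to 0.21 in otic libraries, against 5.21, 3.58 and 3.07 in ectoderm libraries 5, 3 and 4 and -0.04 to 1.64 in the others (difference -2.04, adjusted p = 0.12 in limma).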
